A study of Mus musculus with 6 samples.

Results

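The cytosolic ribosome is built from ribosomal RNA and a fixed set of ribosomal proteins, most of them present in 1 copy per ribosome. The genes examined here encode those proteins. They were taken by symbol: Rpl or Rps followed by a number with at most a short suffix, together with Rpsa, Rplp0, Rplp1 and Rplp2, and without pseudogene symbols and the Rps6k kinases. The rule found 84 of the 24346 rows in the files, 51 with large subunit symbols and 33 with small subunit symbols.

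The 6 libraries were made from mouse brain labelled as embryonic day 17.5. The labels give 3 libraries the genotype miR-124a-1/2 DKO, a double knockout of 2 of the genes that encode the neuronal microRNA miR-124a. The other 3 are controls of genotype miR-124a-1+/-, so each control already lacks 1 allele of miR-124a-1 and no library is labelled wild type. The column headers of the libraries labelled DKO read CKO, which the labels do not explain, and groups follow the labels here. The study's title places the comparison in neuronal maturation. Nothing in the labels ties replicate numbers to litters or days.

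Values are FPKM, fragments scaled to transcript length and to the number of mapped fragments, so they can be compared between genes as levels per length. They carry no read totals. Steps between low values put the depth of the other 5 libraries at 0.956 to 1.24 times that of DKO replicate 1, and precision is otherwise taken from the spread between libraries. The labelled tissue and age were not matched by defining markers. The rod photoreceptor genes Sag and Gnat1 lay at 2841 to 3594 FPKM and 2544 to 2861 FPKM, while Mki67, a gene of dividing cells, lay at 0.0765 to 0.262 FPKM and the cortical factor Neurod6 at 0.493 to 1.08 FPKM. This held in both groups, which are therefore named only by their labels. Short RNA rows were taken by symbol (microRNAs, snoRNAs, scaRNAs, snRNAs and other structural noncoding RNAs). They took 6.36% of the summed FPKM in control replicate 3 and 1.77% to 3.13% in the other 5 libraries. Control replicate 3 is therefore given separately where it bears on a value. In bulk RNA, a change in the number of cells of a type and a change in RNA per cell cannot be told apart.

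Ribosomal protein mRNAs are made in near-balanced amounts in most cells, and their translation is set together. Many begin with a terminal oligopyrimidine tract (TOP), a C followed by a run of C and T at the cap, through which the kinase mTORC1 and the RNA-binding protein Larp1 control their translation. The genes are also known for their many processed pseudogenes, intronless copies made by reverse transcription of the mRNA, some of which differ from the parent by few bases. Several core genes have paralogs with restricted expression, such as Rpl3l in muscle and Rpl10l and Rpl39l in testis.

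The near-identical copies bear directly on the values below, so their sequences are shown here. Coding sequences of the members were compared with all other GENCODE M21 transcripts (GRCm38, the assembly of mm10). A copy here is a transcript of another gene name with 95% identity or more over 90% or more of the coding sequence. By this rule 77 of the 84 members had at least 1 copy, 571 copies in all. Of the matches, 546 had a processed pseudogene type, a count that would also take in unprocessed types. A copy can overlap the member's own locus, as Gm45713 does for Rpl13a on chromosome 7. Rpl21 had 56 copies and Rpl7a had 31. Only 21 of the 571 copies have a row of their own in the files, and 4 of these rows had a mean of at least 50 FPKM: Rps27rt, Rpl34-ps1, Gm12191 and Gm15772. They are copies of Rps27, Rpl34, Rpl30 and Rpl26.

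Rps27 encodes a zinc-finger protein of the small subunit. Its gene has 4 exons on the minus strand of chromosome 3 (90212522 to 90213651), and Rps27rt is a gene of 1 exon on the minus strand of chromosome 9 (114982366 to 114982739) that GENCODE annotates as protein-coding. Over the 252 coding bases before the stop codon they differ at 0 positions, so the sequence is given for both, in lower case throughout.
Rps27: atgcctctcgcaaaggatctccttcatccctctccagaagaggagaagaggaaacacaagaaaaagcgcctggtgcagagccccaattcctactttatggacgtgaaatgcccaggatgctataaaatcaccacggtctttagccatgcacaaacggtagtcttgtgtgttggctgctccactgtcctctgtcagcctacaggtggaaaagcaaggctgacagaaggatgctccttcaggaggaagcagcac
Rps27rt: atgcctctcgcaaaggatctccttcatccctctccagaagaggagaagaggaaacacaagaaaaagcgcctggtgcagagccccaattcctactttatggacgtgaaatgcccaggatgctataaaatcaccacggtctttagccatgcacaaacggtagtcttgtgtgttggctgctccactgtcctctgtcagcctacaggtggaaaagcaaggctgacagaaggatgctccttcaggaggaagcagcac
A read from the coding part of this mRNA matches both loci base for base.

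For the other pairs, the 61 bases around the first difference are shown, with the differing base in capitals and positions counted from 1 at the A of the start codon. Rpl34 (chromosome 3, 130726831 to 130730398, minus strand, 5 exons) and Rpl34-ps1 (chromosome 6, 71124610 to 71124963, plus strand, 1 exon) differ at 2 of 351 coding bases, T132C and C318G, with the base of Rpl34 given first.
Rpl34, bases 102 to 162: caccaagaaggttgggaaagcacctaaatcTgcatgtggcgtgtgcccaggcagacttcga
Rpl34-ps1, bases 102 to 162: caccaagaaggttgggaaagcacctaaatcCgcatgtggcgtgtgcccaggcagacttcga
Rpl30 (chromosome 15, 34440505 to 34443640, minus strand, 4 exons) and Gm12191 (chromosome 11, 49678710 to 49679057, minus strand, 1 exon) differ at 1 of 345, G96A.
Rpl30, bases 66 to 126: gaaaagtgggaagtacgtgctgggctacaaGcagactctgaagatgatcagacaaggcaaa
Gm12191, bases 66 to 126: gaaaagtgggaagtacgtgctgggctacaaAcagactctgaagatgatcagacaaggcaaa
Rpl26 (chromosome 11, 68901583 to 68906989, plus strand, 4 exons) and Gm15772 (chromosome 5, 3236431 to 3236868, plus strand, 1 exon) differ at 2 of 435, C177T and T288C.
Rpl26, bases 147 to 207: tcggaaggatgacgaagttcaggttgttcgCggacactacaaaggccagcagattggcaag
Gm15772, bases 147 to 207: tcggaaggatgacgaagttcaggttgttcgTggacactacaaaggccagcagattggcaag
Stretches of 176 to 249 coding bases carry no difference in these 3 pairs. The copies Rpl34-ps1, Gm12191 and Gm15772 are annotated as processed pseudogenes.

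Most of the genes were among the abundant rows of every library. The mean over the 6 libraries was at least 50 FPKM for 73 of the 84, with a median of 306 FPKM over those 73, against a median of 12.6 FPKM over the 13215 rows that averaged 1 FPKM or more. Of the 500 rows with the highest means, 68 were members, and of the 100 highest, 15. The 44 large subunit genes at or above 50 FPKM had a median of 297 FPKM and the 29 small subunit genes 313 FPKM. The limit of 50 FPKM was set after the values were seen and falls in a gap of the distribution, with Rps27l at 33.6 FPKM below it and Rpl22 at 52.1 FPKM above it.

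The highest values belonged to genes of short mRNAs. Rps29, a zinc-binding small subunit protein, measured 851, 819 and 898 FPKM in the libraries labelled DKO and 851, 841 and 934 FPKM in the controls. Rpl41, which encodes one of the shortest eukaryotic proteins, measured 839, 865 and 875 FPKM in the libraries labelled DKO and 790, 894 and 903 FPKM in the controls. Both stayed within a narrow band and their groups overlapped. Rpl38 (638 to 821 FPKM), Rplp1 (695 to 786 FPKM), Rps15 (532 to 574 FPKM), Rps14 (455 to 609 FPKM) and Rps18 (449 to 552 FPKM) were also among the highest. Across the 73 genes, Spearman's rank correlation between mean FPKM and annotated transcript length was -0.39, as a description across genes, which are not independent replicates.

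The lateral stalk of the large subunit, which recruits translation factors, is made of Rplp0 and dimers of Rplp1 and Rplp2. Rplp0 lay at 220 to 246 FPKM, Rplp2 at 449 to 527 FPKM and Rplp1 at 695 to 786 FPKM, so the 3 rows did not overlap in level. Rpsa, the small subunit protein also known as the laminin receptor, lay at 157 to 176 FPKM.

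**Figure D1:**
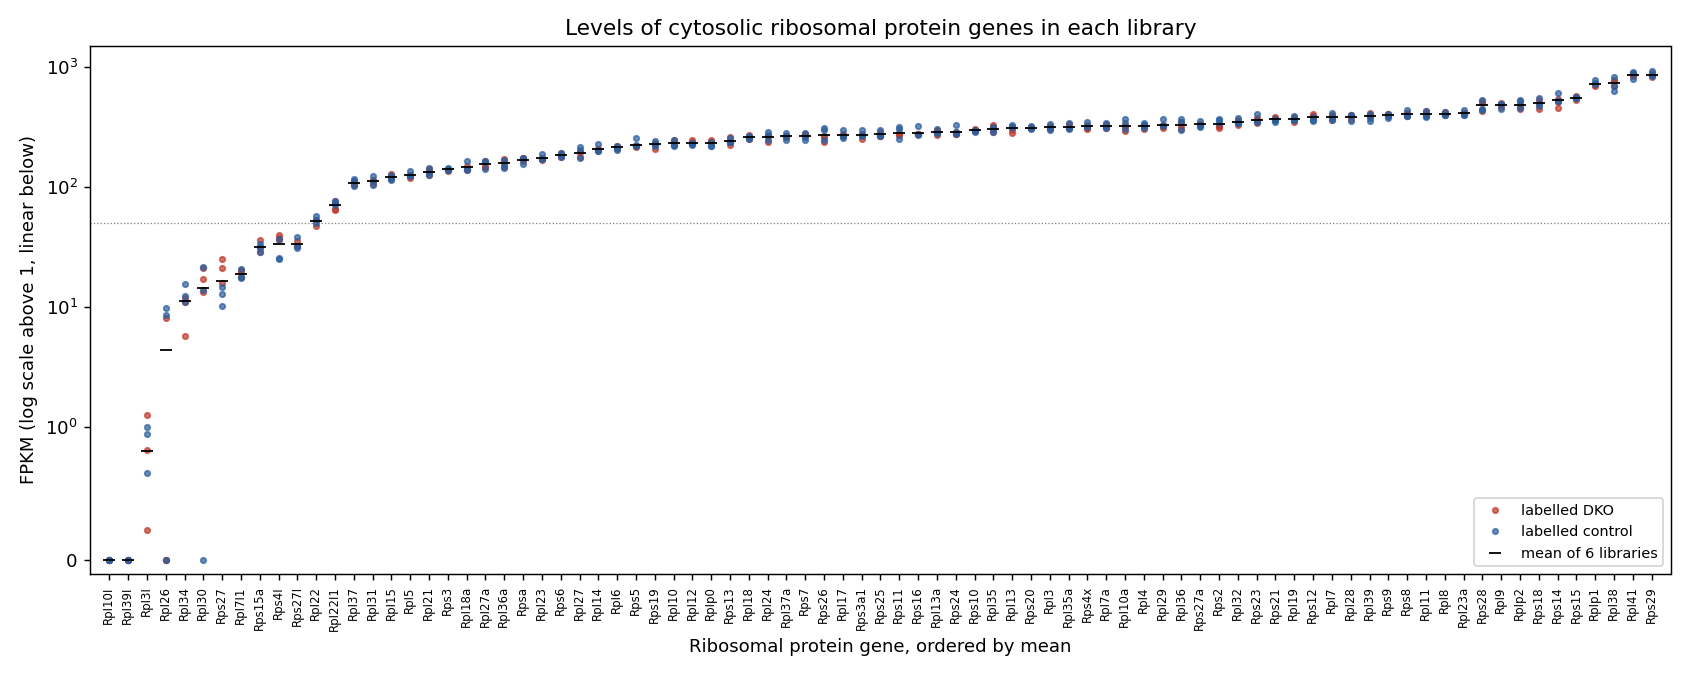
FPKM of the cytosolic ribosomal protein genes reported here (horizontal axis, ordered by mean) in each library (points, vertical axis on a log scale above 1 FPKM), with bars at the mean of 6 libraries and a dotted line at 50 FPKM. Each gene above the line keeps its libraries close together, and 11 genes lie below it.

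Of the 11 members under 50 FPKM, 6 are paralogs and 5 are core genes: Rpl26, Rpl34, Rpl30, Rps27 and Rps15a. For the first 4 of these core genes, the intronless copy held the abundant row. Rpl26, at the peptide exit of the large subunit, is listed at 0 in DKO replicates 1 and 2 and in control replicate 1, and at 8.17, 9.72 and 8.60 FPKM in DKO replicate 3 and control replicates 2 and 3. Its copy Gm15772 measured 451, 455 and 457 FPKM in the libraries labelled DKO and 432, 417 and 504 FPKM in the controls. The listing of Rpl26 at 0 in 3 libraries thus stands beside 451, 455 and 432 FPKM in the same libraries at a locus that differs from it at 2 coding bases.

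Rpl30, a large subunit protein known to bind its own transcript in yeast, is listed at 0 in control replicate 1. It measured 13.9 and 21.5 FPKM in control replicates 2 and 3, and 21.1, 13.3 and 17.2 FPKM in the libraries labelled DKO. Gm12191 measured 351, 402 and 345 FPKM in the libraries labelled DKO and 419, 359 and 418 FPKM in the controls. No fold change is given for Rpl26 and Rpl30, because a 0 in a core gene may be a failed estimate.

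Rpl34 measured 10.97, 5.73 and 11.8 FPKM in the libraries labelled DKO and 15.6, 10.96 and 12.3 FPKM in the controls. Rpl34-ps1 measured 391, 402 and 378 FPKM in the libraries labelled DKO and 371, 357 and 394 FPKM in the controls. Rps27 measured 15.9, 21.02 and 24.96 FPKM in the libraries labelled DKO and 12.8, 10.2 and 14.8 FPKM in the controls. Rps27rt measured 614, 572 and 569 FPKM in the libraries labelled DKO and 604, 648 and 637 FPKM in the controls. The mean of the copy was 26.3 to 103 times that of the member in the 4 pairs.

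Summed over both rows, each pair fell within the range of the abundant members: 427 to 513 FPKM for Rpl26 with Gm15772, 362 to 439 FPKM for Rpl30 with Gm12191, 368 to 408 FPKM for Rpl34 with Rpl34-ps1, and 594 to 658 FPKM for Rps27 with Rps27rt. The row of the member held 0% to 5.67% of such a sum. How the authors' counting divided reads between a gene and its copy is not given in the sources used here, so the level of neither row is a measure of its locus alone, and where the reads came from was not tested. Rps15a, the fifth core gene, measured 28.7 to 36.1 FPKM. Of its 6 copies 2 have rows, Rps15a-ps4 and Rps15a-ps6, with means of 1.08 and 1.18 FPKM, so no abundant counterpart stands in the files. The remaining 17 copy rows, these 2 included, had means of at most 20.2 FPKM.

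**Figure D2:**
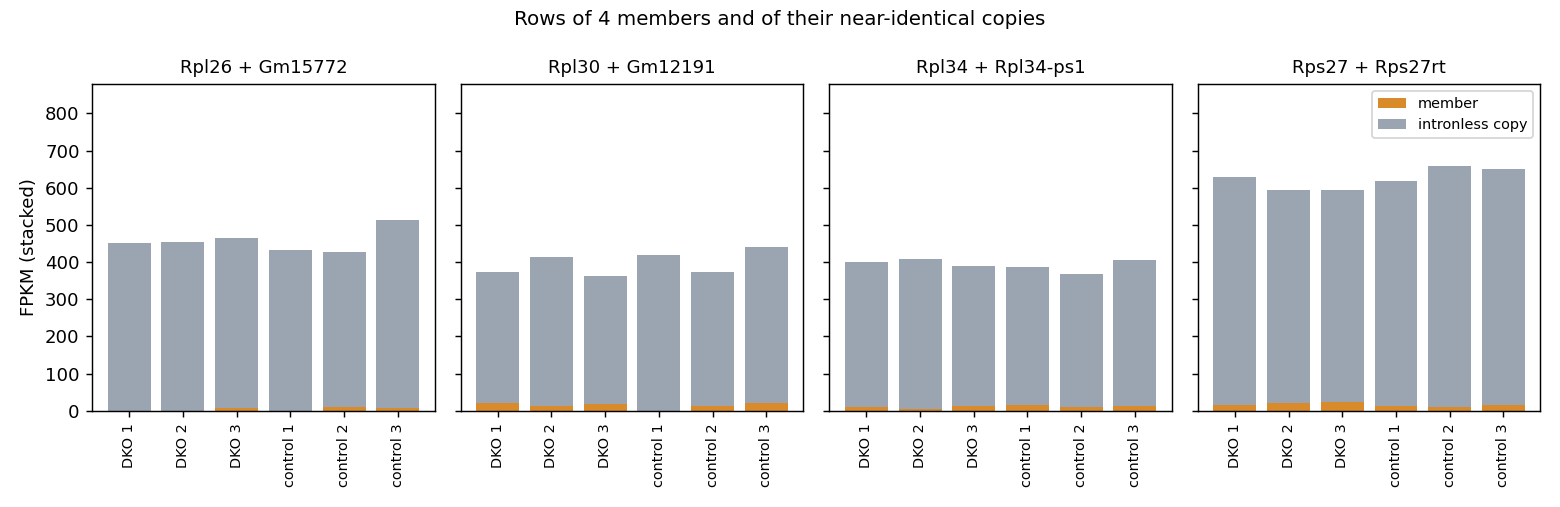
FPKM of 4 core ribosomal protein genes (orange) and of their intronless copies (grey), stacked, in each of the 6 libraries. The copy makes up nearly all of each bar, and the sums lie between 362 and 658 FPKM.

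The paralogs lay at the lower end of the levels, from 0 to a mean of 71.2 FPKM for Rpl22l1. Rpl22l1 was above Rpl22 in all 6 libraries. Rpl22, a large subunit protein that is dispensable for general translation in mice, measured 47.5, 52.5 and 52.97 FPKM in the libraries labelled DKO and 52.7, 50.1 and 57.0 FPKM in the controls. Rpl22l1 measured 76.1, 64.7 and 65.1 FPKM in the libraries labelled DKO and 75.9, 74.2 and 71.0 FPKM in the controls, which is 123% to 160% of Rpl22 in the same library. Rpl22 protein is known to hold down its paralog's transcript in several mouse tissues.

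Rps27l, a paralog of Rps27 known as a p53 target, measured 31.2 to 38.4 FPKM. It was above Rps27 in all 6 libraries, at 129% to 306% of it, but far below Rps27 and Rps27rt together. Rps4l, annotated as a transcribed processed pseudogene of 1 exon on the plus strand of chromosome 6 (148354656 to 148355598), lay at 25.1 to 39.6 FPKM, or 7.35% to 13.02% of Rps4x. Rpl7l1 lay at 17.3 to 20.6 FPKM, or 4.202% to 5.58% of Rpl7. Rpl3l, a paralog of striated muscle, lay at 0.227 to 1.27 FPKM, at most 0.392% of Rpl3. The testis genes Rpl10l and Rpl39l are listed at 0 in all 6 libraries. The muscle list fixed for these libraries (Acta1, Myh3, Ckm, Tnnt3, Myl1) summed to 1.89 to 3.98 FPKM in the libraries labelled DKO and 2.14 to 2.53 FPKM in the controls.

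Outside the symbol rule, further genes encode ribosomal proteins or a ribosome-bound protein. Fau, a fusion of a ubiquitin-like protein with a small subunit protein, lay at 320 to 386 FPKM. Gnb2l1, the scaffold protein RACK1 of the small subunit, lay at 179 to 205 FPKM, and Rpl36al at 84.1 to 99.7 FPKM, or 50.6% to 65.7% of Rpl36a. These 3 rows were within the range of the 73 abundant members.

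**Figure D3:**
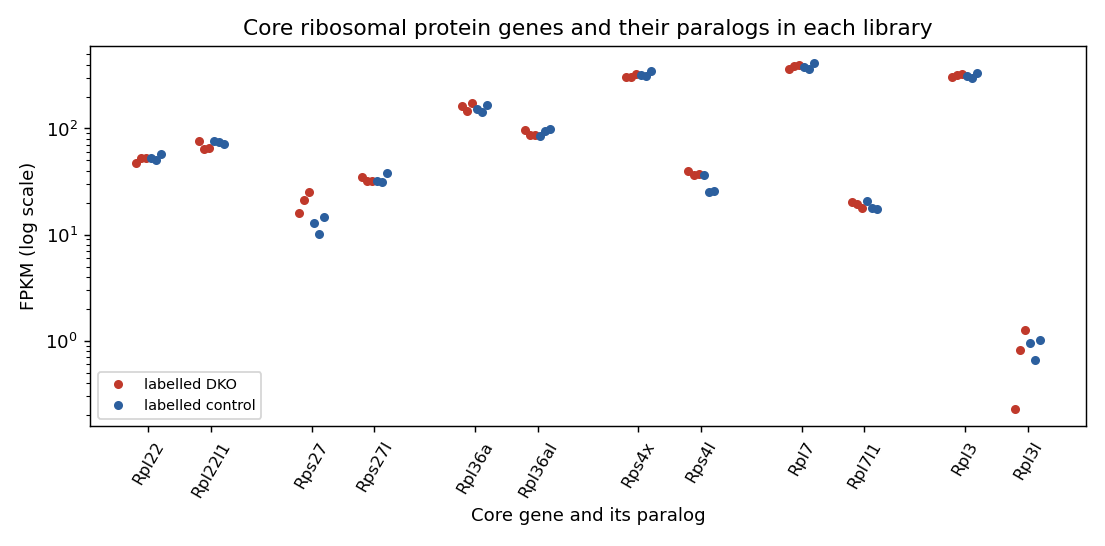
FPKM (log scale) of core genes and their paralogs in each library, with the libraries labelled DKO in red and the controls in blue. Rpl22l1 lies above Rpl22 and Rps27l above Rps27 in every library, and the other paralogs lie below their core genes. Rpl10l and Rpl39l, at 0 in every library, are not drawn.

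The members took a steady share of each library. Their summed FPKM was 5.71%, 5.77% and 5.75% of all FPKM in the libraries labelled DKO and 5.66%, 5.60% and 5.77% in the controls. The group means were 5.74% ± 0.0324 (SD, n = 3) and 5.67% ± 0.0838 (SD, n = 3), a difference of 0.067 percentage points, with the values overlapping. The difference was 0.030 without control replicate 2, 0.112 without control replicate 3 and 0.024 without short RNA rows. With short RNA rows left out, control replicate 3 had the highest share, 6.16%, and the other 5 libraries lay between 5.70% and 5.93%.

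The spread between libraries was small. The coefficient of variation over the 6 libraries had a median of 5.10% over the 73 abundant members, from 1.88% to 10.7%, and of 4.82% over 1459 other rows in the same range of means. Among tested members the highest coefficients were those of Rpl26 and Rpl30, which are listed at 0 in some libraries, and of Rps27 (32.7%), Rpl34 (28.4%), Rps4l (19.0%) and Rps26 (10.7%). The first 4 are the genes whose copies hold the abundant rows.

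The remaining variation was shared between genes. Relative to each gene's mean over the libraries, on the log2(FPKM + 1) scale, 70 of the 73 abundant members were above 0 in control replicate 3, with a median of 0.095. In that library 63.8% of the 1459 other rows of similar level were above 0, with a median of 0.030. In control replicates 1 and 2, 15 and 16 of the 73 members were above 0, and in DKO replicates 1, 2 and 3 there were 22, 40 and 46. The median of the members was highest in control replicate 3 and lowest in DKO replicate 1 (-0.044), with control replicates 1 and 2 at -0.033 and -0.035.

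As a description of how far genes moved together, the median Pearson correlation between pairs of abundant members over the 6 libraries was 0.52, against 0.071 between pairs of the 1459 other rows. Without control replicate 3 it was 0.26 over 5 libraries, against 0.062. Members and other rows of a library share its scaling, and the part of scaling in these correlations was not tested. Least like the mean of the other members were Rpl22l1 (r = -0.41 over 6 libraries), Rpl12 (-0.28), Rpl39 (-0.21) and Rpl36 (0.033).

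Other gene groups did not all follow this shift, read here without a test. In control replicate 3 the median deviation on the log2(FPKM + 1) scale was 0.10 for 5 ribosomal protein genes outside the rule, Rps27rt among them, and 0.054 for 16 translation factors and related genes of the TOP class, such as Eef2, Eef1a1 and Pabpc1. It was -0.00060 for 77 mitochondrial ribosomal protein genes and -0.0059 for 41 ribosome biogenesis genes. Lists of cell markers went in both directions in that library. The median deviation there was 0.086 for 8 rod photoreceptor genes, -0.030 for the 4 tested cortical neuron genes and -0.070 for 4 Mueller glia genes, and it was 0.20 for 7 snoRNA host transcripts of the TOP class. In the other 5 libraries it ran from -0.11 to 0.086 for the rod genes and from -0.13 to 0.20 for the cortical genes. For the Mueller glia genes it ran from -0.019 to 0.073 in those libraries, and for the snoRNA hosts from -0.29 to 0.12. The median deviation of the 6 microglia markers was 0.42 in control replicate 3 and -0.15 to -0.016 in the other 5 libraries. Their summed level was 24.9 to 28.8 FPKM in the libraries labelled DKO and 24.3 to 40.0 FPKM in the controls, and none of the 6 was at 0 in all libraries. The 5 red blood cell markers with a row summed to 12.8 to 21.1 FPKM and 17.2 to 30.7 FPKM. The part of these cells, and of the short RNA rows, in the higher ribosomal protein values of control replicate 3 was not tested.

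**Figure D4:**
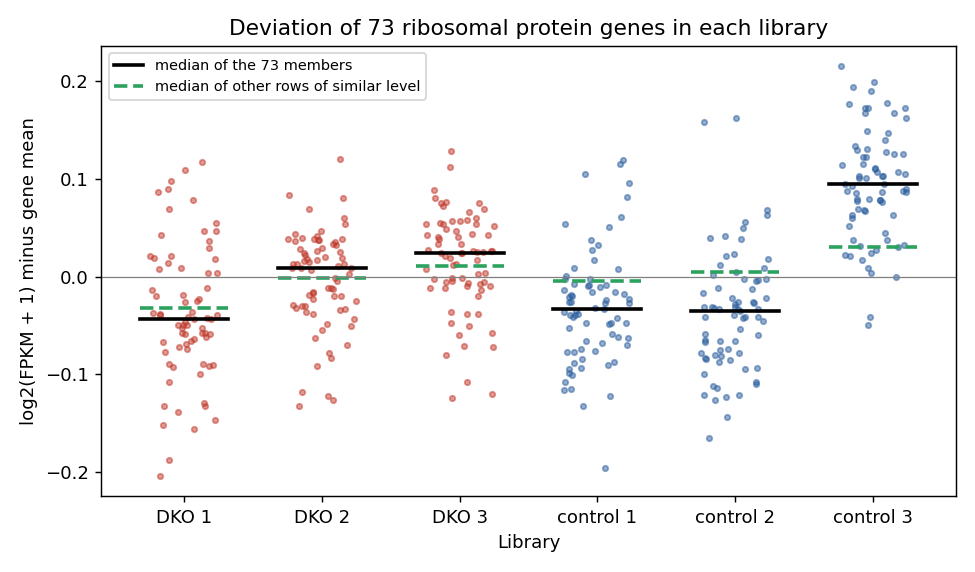
Deviation of log2(FPKM + 1) from the gene's mean over 6 libraries (vertical axis) for the 73 members of at least 50 FPKM (points), by library, with the median of the members (black) and of 1459 other rows of similar level (dashed green). In control replicate 3, 70 of the 73 points are above 0.

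In 29 of the 63 members with an entry in the RefSeq table of transcription start windows (GRCm38.p6), or 46.0%, a C followed by at least 4 bases that are each C or T began within 5 bases of an annotated start, on the strand of the gene. The share was 21.2% of all 27025 genes in that table. The 30 bases around the start are shown for the members with the longest such tracts, 15 bases on each side, with the tract in capitals. Whether members with a tract moved together more than other members was not tested. The 4 shown differed in their correlation with the mean of the other abundant members. Rpl27a and Rpl35 had r = 0.23 and 0.32, and Rpl15 and Rpl13a had r = 0.77 and 0.79. The tracts of Rpl27a and Rpl13a run past the end of the window and are cut there.
Rpl27a, chr7:109519180-109519209, + strand: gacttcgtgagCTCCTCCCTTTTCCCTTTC
Rpl15, chr14:18270972-18271001, - strand: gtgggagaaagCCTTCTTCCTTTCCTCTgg
Rpl35, chr2:39005117-39005146, - strand: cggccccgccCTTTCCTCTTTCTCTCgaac
Rpl13a, chr7:45128731-45128760, - strand: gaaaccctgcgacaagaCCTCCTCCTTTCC
Annotated starts can lie away from the true cap site, and a tract here is a match of letters only.

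The comparison of the libraries labelled DKO with the controls asks whether loss of miR-124a alleles goes with a change in these transcripts. It found none that passed. Of the 84 members, 81 had a mean of at least 1 FPKM and were tested with limma on log2(FPKM + 1), and the smallest adjusted p of a member was 0.412 (Benjamini-Hochberg over all 13215 rows). So 0 of 81 members passed, where 3 of 13215 rows, or 0.0227%, passed in all. Without adjustment, 3 of 81 members had p under 0.05, against 7.88% of all rows. Of these 3, 2 were higher and 1 was lower in the libraries labelled DKO, against 3.52% and 4.36% of all rows.

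The groups did not overlap in 3 members, Rps27, Rps2 and Rpl13, against 13.9% of all rows. Rps27 was the 1 member with every DKO value above every control value (6.96% of all rows), and Rps2 and Rpl13 were the 2 below (6.95% of all rows). Such counts over the members are no larger than those over all rows.

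The fold changes were small for the abundant members. All 73 had a 95% confidence interval from limma that lay within 0.5 of 0 on the log2 scale, and 66 of the 73 estimates lay within 0.1 of 0. Over the 81 tested members, 33 were above 0 and 48 below, with a median of -0.0097, against a median of -0.0016 over all tested rows. Both turned on single libraries. The count above 0 was 58 without control replicate 3 and 21 without control replicate 1, and the median was above 0 without control replicate 3 (0.032), without DKO replicate 1 (0.0094) and with quantile normalization (0.0055). The large subunit genes had 20 above 0 of 48 and the small subunit genes 13 of 33.

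Rps2, a small subunit protein near the mRNA entry (chromosome 17, 24718116 to 24721929, plus strand, 6 exons), measured 321, 310 and 320 FPKM in the libraries labelled DKO and 366, 342 and 364 FPKM in the controls. The control values were all above the DKO values. The estimate was -0.17 on the log2 scale, with a standard error of 0.045 (limma, Benjamini-Hochberg adjusted p = 0.418), and the 95% confidence interval was -0.28 to -0.066. Rps2 has 22 near-identical copies, none with a row.

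Rps2 also holds the snoRNA gene Snora64, of the H/ACA class that guides pseudouridylation. Its row measured 1005, 0 and 889 FPKM in the libraries labelled DKO and 526, 481 and 495 FPKM in the controls, with no order that follows Rps2. In all, 66 short RNA genes lie within 32 members on the same strand, and 38 of them have rows. Of these rows 33 are listed at 0 in all 6 libraries and 5 had a value in at least 1. After Snora64 the highest were Snora70 in Rpl10, at 190 FPKM in control replicate 1 and 0 elsewhere, and Snord15b in Rps3, at 29.98 and 65.6 FPKM in DKO replicates 2 and 3, 38.8 FPKM in control replicate 1 and 0 elsewhere.

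Rps27 had the smallest p of the members. The estimate was 0.66 on the log2 scale, with a standard error of 0.17 and a 95% confidence interval of 0.27 to 1.06 (limma, Benjamini-Hochberg adjusted p = 0.412). Rps27rt, with the identical coding sequence, had a log2 fold change of -0.11 (limma, Benjamini-Hochberg adjusted p = 0.683). Both rows together came to 606 ± 20.96 FPKM in the DKO group and 642 ± 21.8 FPKM among controls (SD, n = 3 each), and the groups overlapped. Rps27 held 1.55% to 4.203% of this sum, which therefore follows Rps27rt and bears little on the Rps27 row. In the same fit Rpl34 had a log2 fold change of -0.45 with a 95% confidence interval of -1.004 to 0.0995, and Rpl34-ps1 had 0.062. Without DKO replicate 2, the lowest library, the estimate for Rpl34 was -0.16, and over all alternatives it ranged from -0.63 to -0.16. Their sum was 400 ± 9.20 FPKM (SD, n = 3) against 387 ± 19.0 FPKM (SD, n = 3). The copies Gm12191 and Gm15772 had log2 fold changes of -0.12 and 0.016 (limma, Benjamini-Hochberg adjusted p 0.768 and 0.970).

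Rps4l measured 39.6, 36.5 and 37.4 FPKM in the libraries labelled DKO and 36.7, 25.1 and 25.8 FPKM in the controls. Control replicate 1 lay with the DKO libraries and the groups overlapped. The estimate was 0.38 on the log2 scale, with a standard error of 0.13 (limma, Benjamini-Hochberg adjusted p = 0.550). Over the alternatives the adjusted p of Rps4l ranged from 0.106 to 0.802, of Rps2 from 0.302 to 0.802 and of Rps27 from 0.205 to 0.773.

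The other members of smallest p had estimates on both sides of 0. Rps12 had a log2 fold change of 0.11, with 395 ± 13.2 FPKM against 366 ± 17.5 FPKM (SD, n = 3 each). Rplp0 had 0.089, with 241 ± 4.09 FPKM against 227 ± 10.5 FPKM (SD, n = 3 each). Rpl13 (chromosome 8, 123102350 to 123105244, plus strand), whose groups did not overlap, measured 314, 299 and 284 FPKM in the libraries labelled DKO and 316, 318 and 326 FPKM in the controls, a log2 fold change of -0.10. The lowest control value and the highest DKO value of Rpl13 were less than the SD of the DKO libraries (14.6 FPKM) apart. Rps26 had -0.16, Rps14 -0.13 and Rpl22l1 -0.11. These 6 members and Rpl34 had limma adjusted p values (Benjamini-Hochberg) from 0.656 to 0.768.

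**Figure D5:**
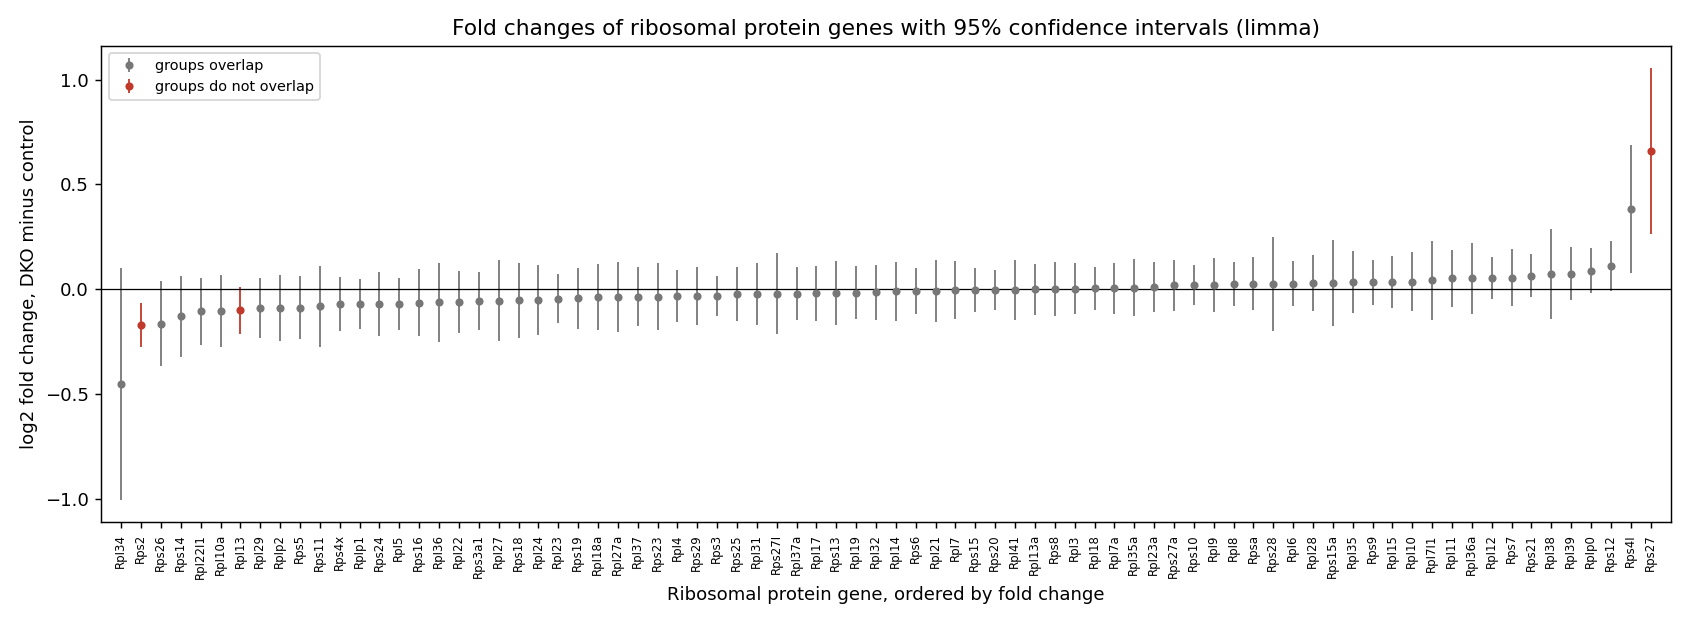
Log2 fold change, DKO minus control, on the log2(FPKM + 1) scale with 95% confidence intervals from limma, for tested members with no library at 0, ordered by size. The groups do not overlap for Rps27, Rps2 and Rpl13 (red), and most estimates lie within 0.1 of 0.

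Letters that could pair with miR-124 were rare in the 3' UTRs of these genes. The word GTGCCTT, which pairs with the seed of miR-124-3p, was searched on the transcript strand of the 3' UTR of 1 annotated transcript per gene. The word, a match of letters and not a measured site, was present in 1 of 82 protein-coding members with such a UTR, Rps23, or 1.22%, against 11.1% of 19770 protein-coding genes. The median UTR length was 61.5 bases for the members and 688 bases for all genes, so the members offer less sequence to search. Rps23, a small subunit protein of the decoding center, measured 341, 359 and 379 FPKM in the libraries labelled DKO and 346, 357 and 404 FPKM in the controls, and the groups overlapped.

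Genes that work with ribosomal proteins also held 0 calls. None of the 16 TOP class genes passed in either direction; 8 were above 0 and 8 below. The groups did not overlap in 2 of the 16, against 13.9% of all rows, and 1 had an unadjusted p under 0.05, against 7.88% of all rows. The 2 with the smallest p were subunits of the initiation factor eIF3, both lower in every DKO library than in every control. Eif3e measured 57.3, 63.9 and 63.6 FPKM against 67.7, 65.7 and 72.5 FPKM in the controls, with a log2 fold change of -0.15, and Eif3f had -0.12 (limma, Benjamini-Hochberg adjusted p 0.598 and 0.639). Eef2, the elongation factor of translocation, had 0.063.

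Of the 41 ribosome biogenesis genes 0 passed, with 22 above 0 and 19 below and 4 at an unadjusted p under 0.05 (7.88% of all rows). The 3 of smallest p all belong to the H/ACA complex that modifies ribosomal RNA, and they did not share a direction: Nop10 had a log2 fold change of 0.19, Nhp2 -0.34 and Gar1 -0.31 (limma, Benjamini-Hochberg adjusted p 0.505 to 0.556). Of 15 genes of RNA polymerase I and its factors, which transcribe ribosomal RNA, 0 passed, with Polr1e at 0.33, Polr1b at -0.16 and Polr1a at 0.17. Of 17 genes of mTORC1 and its readers 0 passed, with Tsc1, an inhibitor of the pathway, at 0.14, Rraga at -0.13 and Mlst8 at 0.11. These log2 fold changes had limma adjusted p values (Benjamini-Hochberg) of 0.595 to 0.750. The groups did not overlap in 5 of the 17 mTORC1 genes, 7 of the 41 biogenesis genes and 2 of the 15 polymerase genes, against 13.9% of all rows. At an unadjusted limma p under 0.05, 1 of the 17 was higher and 1 lower, against 3.52% and 4.36% of all rows. Whether these counts exceed those of all rows was not tested.

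Free ribosomal proteins are known to bind Mdm2 and release p53. Of 14 genes in the list of p53 and its targets 11 were tested and 0 passed. Of the 11, 3 were above 0 and 8 below, where 49.5% of all tested rows were above 0. The groups did not overlap in 2 of the 11 (13.9% of all rows), and 0 had an unadjusted p under 0.05 (7.88% of all rows). The sum over all 14 rows, which the abundant genes dominate, was 170.5 to 173 FPKM in the libraries labelled DKO and 181 to 186 FPKM in the controls. This sum was not tested. Mdm2 had a log2 fold change of -0.10, Phlda3 0.19 and Bax -0.19 (limma, Benjamini-Hochberg adjusted p 0.690 to 0.728). Mitochondrial ribosomal proteins, which form the separate ribosome of that organelle, had 33 of 77 genes above 0 and 0 past the threshold. Their members of smallest p were Mrpl55 (-0.35), Mrps26 (-0.22) and Mrps21 (0.16), with limma adjusted p values (Benjamini-Hochberg) of 0.506 to 0.518. The count at an unadjusted p under 0.05 was 9 of the 77, with 3 higher and 6 lower, where all rows gave 7.88%, with 3.52% higher and 4.36% lower.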

How the data were processed

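Per the labels, TRIzol was used for RNA and the TruSeq stranded mRNA kit for libraries. Per the submitters' processing notes, the tools included TopHat2 2.1.1, Bowtie2 and Cuffdiff 2.2.1, with build mm10; how annotation, multiply mapped reads and scaling were handled is not given in the sources used here. Values deposited by the authors are in FPKM, per the file headers, for 24346 symbols in each library.

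Members and lists were chosen with earlier results of these data known. Rows averaging 1 FPKM or more were fitted on log2(FPKM + 1) with limma 3.58.1 (R 4.3.3, trend, DKO minus control, Benjamini-Hochberg over all 13215 rows, threshold 0.05), which was tested on simulated data. The added 1 FPKM shrinks fold changes of low genes. The series' design text speaks of brains in triplicate, and whether these were separate embryos is not stated, so p-values measure the spread between these samples. Named members are the 10 of smallest p, those of highest and lowest level or highest variation, the stalk genes, Rpsa, the paralog pairs and the 4 least like the others. From other lists the 3 of smallest p are named, and of the hosted short RNAs the 3 of highest mean. Rps23 was added after its values were seen. Some rows that this rule names are not reported here. Copies were found with BLAST 2.17.0; Python 3.11.15, pandas 2.3.3, NumPy 2.4.6 and SciPy 1.17.1 were used. Alternatives varied pseudocount, filter, scaling, short RNA rows, replicate block, variance model, library weights and single libraries.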

Additional observations from a re-analysis of the deposited data

How the results depend on the processing

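Without a read total, depth limits could not be computed, and 3 libraries per group bound what could be called. The count of 0 members past the limma threshold held in all 17 alternatives, with the smallest adjusted p (Benjamini-Hochberg) of a member between 0.106 and 0.773. The count over all rows was 3, and 1 with eBayes without a trend; it was 1 to 4 without single libraries, lowest without control replicate 2. The members whose groups did not overlap numbered 6 with quantile normalization and 5 to 17 without single libraries. They numbered 5 without DKO replicate 1 or 2 and 9 without DKO replicate 3 or control replicate 2. They numbered 14 without control replicate 1 and 17 without control replicate 3. With a library left out, fewer values make overlap less likely. The share of all rows was not computed under these settings, so these counts are not read as a result about the members. The members above 0 numbered 21 to 58 without single libraries, at the ends without control replicates 1 and 3. Of 478 alternative values for 32 named genes, 476 kept their direction and side of the threshold; Gm15772 turned negative without control replicate 1 (-0.013) and without control replicate 2 (-0.037), with a range of -0.037 to 0.099 over single libraries left out. The cause was not tested. The replicate block left 0 members past the threshold and 7 of 81 (8.64%) at an unadjusted p under 0.05, against 9.62% of all rows under the block. Correlations of deviations between libraries of the same number were 0.072, 0.0063 and 0.10, so the numbers were not taken as pairs; each library correlated best with its own number for numbers 1 and 3 but not for number 2. Over all rows the block called 2.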
